A study of Mus musculus with 20 samples.

Results

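The 35 genes described here encode glutamate receptor subunits and the auxiliary proteins that bind them, and were taken by symbol from the 39179 genes counted in the striatum of 20 male mice. They comprised 4 AMPA receptor genes, 7 NMDA receptor genes, 5 kainate receptor genes, 1 delta receptor gene, metabotropic receptors of group I (1 gene), group II (2 genes) and group III (4 genes), 6 transmembrane AMPA receptor regulatory proteins (TARPs), 3 other AMPA auxiliary proteins and 2 kainate auxiliary proteins. The mice came from generation 17 of a line selected for high home cage activity (High-Active) and of an unselected line (Control), both derived from an intercross of inbred strains. Mice of about 6.5 months received an injection of saline or of 0.25 mg/kg d-amphetamine sulfate and the whole bilateral striatum was collected 2 hours later, with 5 mice for each combination of line and injection. By their labels, 8 pairs of parents gave the 10 Control mice and 5 pairs the 10 High-Active mice, and at most 3 mice had the same pair.

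Glutamate released by cortical and thalamic axons drives the medium spiny neurons of the striatum. AMPA and kainate receptors are fast cation channels, NMDA receptors are calcium-permeable channels that open when glutamate binding coincides with depolarization, and metabotropic receptors act through G proteins. TARPs, cornichon proteins and Shisa proteins change the trafficking and gating of AMPA receptors, and Neto proteins do so for kainate receptors. Medium spiny neurons, cortical and thalamic neurons and glia all express genes of this family, each with its own mixture.

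Of the 35 members, 31 had more than 1 CPM (the count scaled to a library of standard size) in 3 mice or more and were tested among 14792 genes. Gene-level depth ran from 32388971 to 53710713 counts per mouse (median 41703853.5). The summed level of 9 markers of striatal medium spiny neurons was 4297 to 7097 CPM per mouse. None of the 9 differed between the lines in edgeR at an adjusted p under 0.1 (2 were lower at an unadjusted p under 0.05). Without regard to p, 8 of the 9 were lower in High-Active mice. Their median log2 difference was -0.13, against -0.00093 over all genes. The lowest sums were in High-Active saline replicates 1 (4297 CPM) and 4 (4653 CPM) and High-Active amphetamine replicate 2 (4699 CPM). Summed CPM of 9 cortical excitatory neuron markers was 295.8 to 828.8 in Control saline mice, 607 to 830.5 in Control amphetamine mice, 162.7 to 341.6 in High-Active saline mice and 217.1 to 967.6 in High-Active amphetamine mice. Of these 9 markers, 3 were lower in High-Active mice. Summed CPM of 4 thalamus markers was above 100 in 4 mice, all High-Active: saline replicates 1 (180.2) and 4 (125.4) and amphetamine replicates 2 (181.8) and 3 (163.5). It did not exceed 77.49 in any other mouse. Of these 4 markers, 2 were higher in High-Active mice. Higher levels in High-Active mice were also called for 3 of 6 astrocyte, 1 of 8 oligodendrocyte and 1 of 4 oligodendrocyte precursor markers, and lower levels for 1 of 5 microglial markers. None was called of 8 striatal interneuron markers (2 lower at an unadjusted p under 0.05), 4 endothelial markers and 4 choroid plexus markers (0 at that p in each). Of all 14792 genes, 7.63% were called higher and 6.9% lower in High-Active mice, and 26.1% had an unadjusted p under 0.05. Several of these marker counts are near those shares. In whole tissue, fewer cells of a type and less RNA per cell cannot be told apart.

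**Figure D1:**
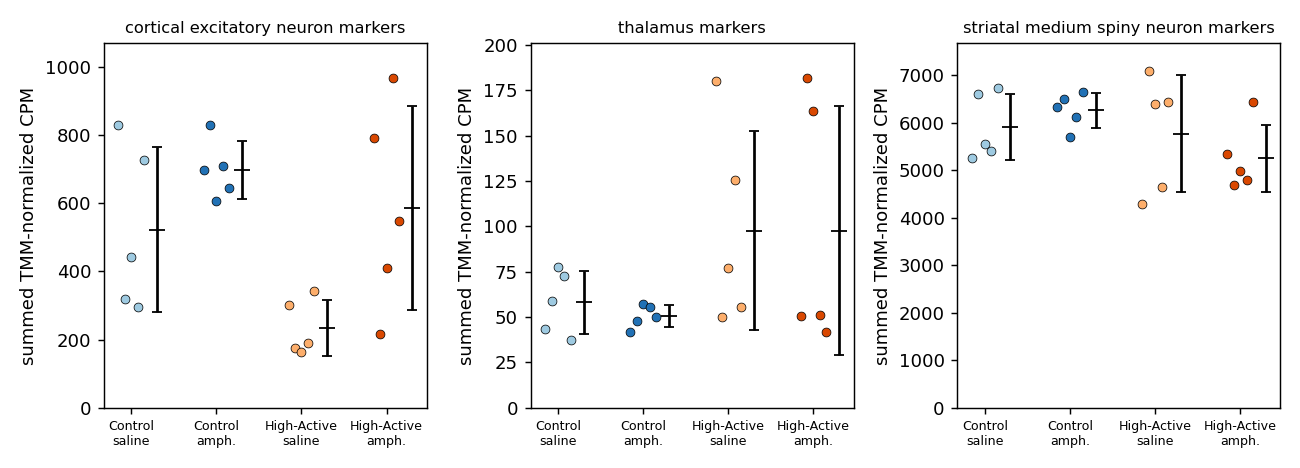
Summed TMM-normalized CPM of 9 cortical excitatory neuron markers, 4 thalamus markers and 9 striatal medium spiny neuron markers in each mouse (points) of the 4 groups, with mean and SD at the right of each group. Cortical markers were at most 341.6 CPM in the 5 High-Active saline mice, and thalamus markers were above 100 CPM in 4 High-Active mice only.

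Levels were compared between genes as RPKM, the CPM divided by the length in kilobases of all annotated exons of the gene. Cnih2, a cornichon that promotes export and slows closing of AMPA receptors, had the highest level of the 31 tested members at 115.1 RPKM ± 10.03 (SD, n = 20 mice). It was followed by the AMPA subunit Gria1 at 83.11 ± 4.346 RPKM (SD, n = 20) and the obligatory NMDA subunit Grin1 at 57.3 ± 4.726 RPKM (SD, n = 20). The ranges over mice of Cnih2 and Gria1, of Gria1 and Grin1, and of Grik5 and the next lower member Cacng3 did not overlap, whereas those of all other neighbours in the order did. Grik5, a kainate receptor subunit that binds glutamate with high affinity, reached 49.68 ± 4.883 RPKM (SD, n = 20). The leading tested members of the other classes were the TARP Cacng3 (35.16 ± 4.84 RPKM), the group I metabotropic receptor Grm5 (34.64 ± 3.841 RPKM), the kainate auxiliary Neto2 (30.51 ± 5.169 RPKM), the group II receptor Grm3 (18.62 ± 2.588 RPKM), the delta receptor Grid1 (13.95 ± 0.8587 RPKM) and the group III receptor Grm4 (11.09 ± 1.346 RPKM; SD, n = 20 for each). Grin2a, the NMDA subunit that accompanies maturation in many forebrain regions, was the lowest of the 31 at 1.085 ± 0.2688 RPKM (SD, n = 20). Grin2a and Grin2b have long untranslated exons, and a level per length depends on how much of them the annotation includes.

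Within the AMPA receptor class, Gria1 made up 49.3% of the summed RPKM and Gria2, the subunit that makes the channel impermeable to calcium, 30.5%, with Gria3 at 10.43% and Gria4 at 9.761%. Among the Grin2 subunits, which set the kinetics of NMDA receptors, Grin2b made up 45.56%, Grin2c 39.44%, Grin2d 11.07% and Grin2a 3.935%. Grik5 made up 61.11% of the kainate receptor class. These shares depend on the length correction: without it, as a share of summed CPM, Gria2 made up 50.61%, Grin2b 76.49% and Grik5 44.81%. The share of Grin2b in Control mice was 46.35% ± 5.26 after saline and 51.19% ± 3.634 after amphetamine, and in High-Active mice 41.67% ± 3.765 after saline and 43.02% ± 4.846 after amphetamine (SD, n = 5 each). The 4 groups overlapped in this share.

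**Figure D2:**
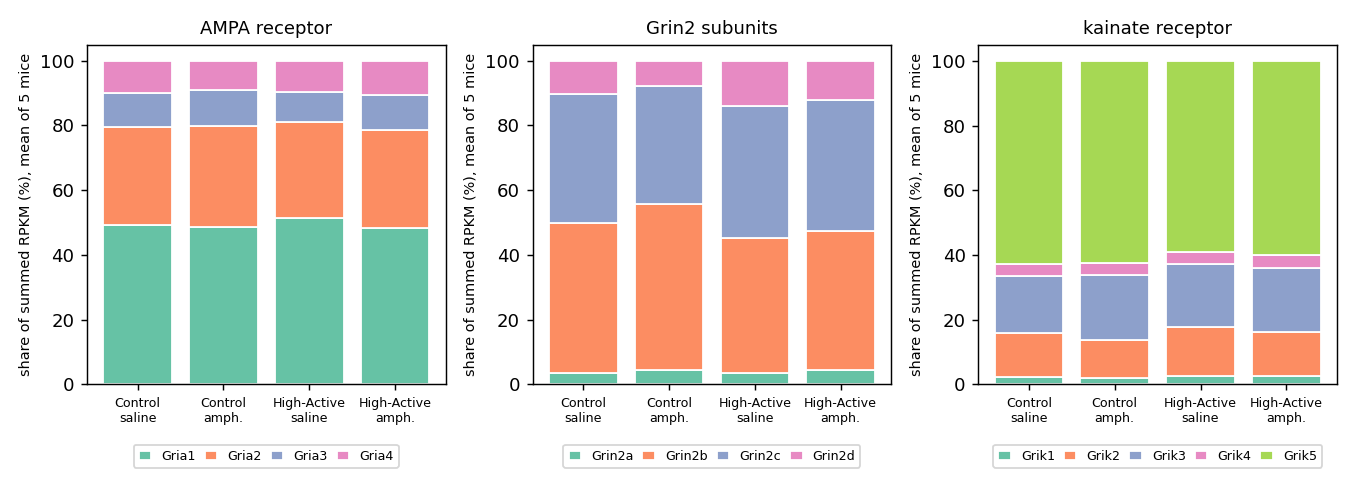
Share of each subunit in the summed RPKM of the AMPA receptor genes, the Grin2 genes and the kainate receptor genes, as the mean of 5 mice in each of the 4 groups. Grin2b ranged from 41.67% of the Grin2 sum in High-Active saline mice to 51.19% in Control amphetamine mice.

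The other 4 members had counts too low to test. The TARP genes Cacng7 and Cacng8 had 0 counts in all 20 mice, which at the lowest depth allows up to 0.0926 CPM for 3 counts. Cacng6, which lies next to them on chromosome 7, also had 0 counts in every mouse. A count of 0 over these 3 neighbouring genes is a property of these tables and was not traced further. It was not read as a low level in the striatum. Grm6, the metabotropic receptor known from retinal bipolar cells, had 0 to 2 counts per mouse, and Grin3b, a glycine-binding NMDA subunit, had 9 to 34. Over 32.1% of its exonic length Grin3b overlaps Tmem259 on the other strand, and the strand setting of the counting is not given in the sources used here.

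The line comparison asked which genes differ between High-Active and Control mice, averaged over both treatments. Grin2b, Grik5, Gria3 and Grin1 were lower in High-Active mice, and no member was higher, at an adjusted p under 0.1 in edgeR's quasi-likelihood test. The 4 members of 31 tested are 12.9%, where 14.5% of all 14792 genes were called, 7.63% higher and 6.9% lower. At an unadjusted p under 0.05, 6 of 31 (19.4%) differed against 26.1% of all genes. The median log2 difference over the 31 members was -0.025, against -0.00093 over all genes. Called members were 1 of 4 AMPA genes, 2 of 6 tested NMDA genes and 1 of 5 kainate genes. None was called among the delta, metabotropic and auxiliary genes, of which 1 (Neto2) had an unadjusted p under 0.05.

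Grin2b encodes GluN2B, which gives NMDA receptors slow deactivation, and lies at chr6:135713233-136173511 (GRCm38, minus strand). Its level in the 5 Control saline mice was 371.1, 350.5, 274.6, 281.3 and 307.6 CPM, and in the 5 Control amphetamine mice 414.3, 417.8, 382.1, 379.3 and 293.7 CPM. In High-Active mice it was 208, 329.3, 272.6, 248.3 and 281.4 CPM after saline and 309.3, 235.1, 286.9, 286.7 and 313.3 CPM after amphetamine. All 10 High-Active mice were below the Control median and 4 were below every Control mouse, while the other 6 overlapped the Control range. The lowest values were in High-Active saline replicates 1 (208 CPM) and 4 (248.3 CPM) and High-Active amphetamine replicate 2 (235.1 CPM). These mice had high thalamus markers. The line difference was -0.32 on the log2 scale (SE 0.085), a ratio of 0.801 (adjusted p = 0.02816). The saline groups alone differed by -0.24 (SE 0.12, adjusted p = 0.305).

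Grin1 encodes GluN1, the subunit that every NMDA receptor contains, and lies at chr2:25291181-25319187 (minus strand). Its level was 593.1, 550.7, 539.3, 548.1 and 637.4 CPM in Control saline mice and 589.7, 597.6, 561.4, 580.6 and 614.6 CPM in Control amphetamine mice. High-Active mice had 469.6, 581.5, 537.7, 454.5 and 576 CPM after saline and 558.6, 488.3, 529, 545.3 and 562.5 CPM after amphetamine. All 10 High-Active mice were below the Control median and 5 were below every Control mouse. The 3 lowest were saline replicates 4 and 1 and amphetamine replicate 2, which are among the 4 mice with high thalamus markers. The line difference was -0.13 (SE 0.048, adjusted p = 0.09157), a ratio of 0.912. Grin1 overlaps the antisense gene Grin1os over 13.5% of its exonic length, and Grin1os was at 0.4963 CPM in Control and 0.1649 CPM in High-Active mice on average. The strand setting of the counting is not given, and the effect of this overlap on the counts of Grin1 was not tested.

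Gria3 encodes the AMPA subunit GluA3 on the X chromosome, at chrX:41400854-41678601 (plus strand). Its level was 183.7, 190.2, 161.1, 161.9 and 184.2 CPM in Control saline mice and 180.6, 203.7, 173.5, 195.4 and 193.7 CPM in Control amphetamine mice. High-Active mice had 145.9, 173.7, 158.2, 137 and 156.3 CPM after saline and 192, 146.6, 160.2, 184.8 and 189.5 CPM after amphetamine. Of the 10 High-Active mice, 6 were below every Control mouse and 3, all given amphetamine, were above the Control median. The lowest values were again in mice with high thalamus markers: High-Active saline replicates 4 (137 CPM) and 1 (145.9 CPM) and amphetamine replicate 2 (146.6 CPM). The line difference was -0.15 (SE 0.056, adjusted p = 0.09003), a ratio of 0.898.

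Grik5 lies at chr7:25009849-25072346 (minus strand). Its level was 275, 247.3, 249.9, 244.9 and 303.9 CPM in Control saline mice and 293.6, 250.1, 265.6, 273.6 and 303.9 CPM in Control amphetamine mice. High-Active mice had 218.1, 236.5, 251.7, 215.8 and 268.7 CPM after saline and 245.4, 220.3, 251.4, 263.5 and 255.9 CPM after amphetamine. All 10 High-Active mice were below the Control median, and 4 were below every Control mouse. Lowest were the same mice with high thalamus markers, High-Active saline replicates 4 (215.8 CPM) and 1 (218.1 CPM) and amphetamine replicate 2 (220.3 CPM). The line difference was -0.16 (SE 0.053, adjusted p = 0.07114), a ratio of 0.897.

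**Figure D3:**
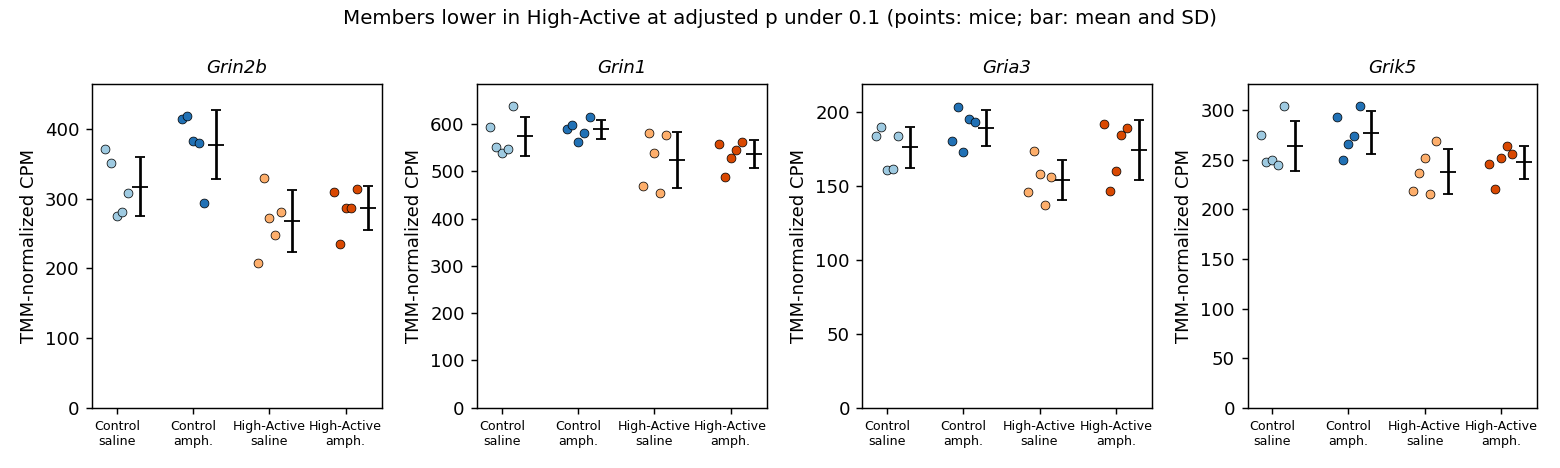
TMM-normalized CPM of Grin2b, Grin1, Gria3 and Grik5 in each mouse (points) of the 4 groups, with mean and SD at the right of each group and the axis starting at 0. High-Active mice lie lower on average for each gene, but every gene has High-Active mice within the Control range.

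The 4 calls were lost when markers of neighbouring tissue entered the fit. With the cortex marker score as a covariate, no member was called, against 3.08% of all genes, and the line difference was -0.26 (SE 0.099, adjusted p = 0.2284) for Grin2b, -0.082 for Grik5 and Gria3 and -0.073 for Grin1. A pair of further fits was chosen after the data were seen. Without the 4 High-Active mice whose thalamus markers exceeded 100 CPM, no member was called, against 3.93% of all genes, and Grin2b was at -0.21 (SE 0.083, adjusted p = 0.2147), Grik5 at -0.096, Gria3 at -0.062 and Grin1 at -0.055. With the thalamus marker score as a covariate in all 20 mice no member was called either, against 4.41% of all genes, and Grin2b was at -0.21 (SE 0.079, adjusted p = 0.18). The mean cortex score was 0.062 in Control saline and 0.58 in Control amphetamine mice. In High-Active mice it was -0.85 after saline and 0.21 after amphetamine, and the 4 omitted mice were all High-Active. These fits therefore cannot separate line from tissue, and the part of neighbouring tissue in the line differences was not tested.

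Single mice also changed the calls. Grin2b was called without any 1 of the 20 mice (log2 difference -0.36 to -0.28), Grik5 in 13 of these 20 fits, Gria3 in 9 and Grin1 in 8. Only Grin2b was called without Control saline replicate 1 or 5, Control amphetamine replicate 5, High-Active saline replicate 4 or High-Active amphetamine replicate 2. The count was 2 without Control amphetamine replicates 1, 2 or 4, High-Active saline replicates 1 or 3 or High-Active amphetamine replicate 3, where the second call was Grik2 (higher, without High-Active saline replicate 1), Gria3 (without Control amphetamine replicate 1) or Grik5 (the other 4). Over these 20 fits 9.36% to 17.2% of all genes were called. When full siblings were summed into 1 sample, no member was called, against 4.12% of all genes. That fit had 8 Control and 5 High-Active samples, summed siblings over both treatments and held no term for treatment. It therefore differs from the main fit in more than the handling of siblings.

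RefSeq promoter sequences (GRCm38.p6) were held for 23 of the 35 members, among the 4 called members for Grin1 and Grik5. The 250 bases before each of these starts are printed 5′ to 3′ on the minus strand in which the genes are read, to show the sequence upstream of these lower members. Capitals mark the GC box GGGCGG, the core to which Sp-family factors bind, searched on both strands.
Grin1, chr2:25319188-25319437: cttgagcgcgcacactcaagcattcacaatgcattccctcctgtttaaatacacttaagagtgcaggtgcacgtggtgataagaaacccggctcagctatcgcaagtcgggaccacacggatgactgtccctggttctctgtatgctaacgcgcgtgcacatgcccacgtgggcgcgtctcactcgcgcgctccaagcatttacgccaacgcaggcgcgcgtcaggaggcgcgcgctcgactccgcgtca
Grik5, chr7:25072370-25072619: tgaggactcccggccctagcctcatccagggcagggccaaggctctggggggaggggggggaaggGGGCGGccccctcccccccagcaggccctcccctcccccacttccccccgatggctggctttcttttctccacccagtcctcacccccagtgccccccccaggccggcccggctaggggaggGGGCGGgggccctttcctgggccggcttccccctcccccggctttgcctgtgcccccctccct
The Grin1 window is 58.8% G and C and has 0 matches on either strand. The Grik5 window is 75.2% G and C, against a median of 52.4% over the 32851 promoters of the table, and has 2 matches, which begin 185 and 63 bases before the start. At least 1 match is found in 32.7% of all promoters of this length and at least 2 in 16.7%, and 14 of the 28 promoters of the members (50%) have at least 1. A match is a description of these letters only.

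Outside the 4 called members, a pair of genes chosen after their values were seen came next. Neto2, an auxiliary protein that slows kainate receptor desensitization, had a line difference of -0.24 (SE 0.094, adjusted p = 0.1086). Grin2d, an NMDA subunit of interneurons, thalamus and brainstem, had a line difference of 0.40 (SE 0.17, adjusted p = 0.1383), with 13.86, 19.88, 22.57, 26.15 and 12.92 CPM in Control saline mice and 15.8, 14.96, 18.96, 15.5 and 11.77 CPM in Control amphetamine mice. High-Active mice had 25.35, 18.48, 24.48, 33.58 and 15.78 CPM after saline and 17.19, 33.13, 24.77, 17.84 and 15.55 CPM after amphetamine. The highest values, 33.58 and 33.13 CPM, were in High-Active mice with high thalamus markers. Grin2d decreased by 0.52 on the log2 scale (SE 0.11) per unit of the cortex marker score in a fit with the 4 group means, and its line difference was 0.06 with that score as a covariate and 0.082 without the 4 mice. Both genes were called by DESeq2, which gave 6 members (5 lower, 1 higher) against 19% of all genes, and Neto2 also by the likelihood-ratio test, which gave 4 members (Grin2b, Neto2, Grik5 and Gria3) against 15.3%. The other 25 tested members had line differences between -0.15 and 0.16.

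**Figure D4:**
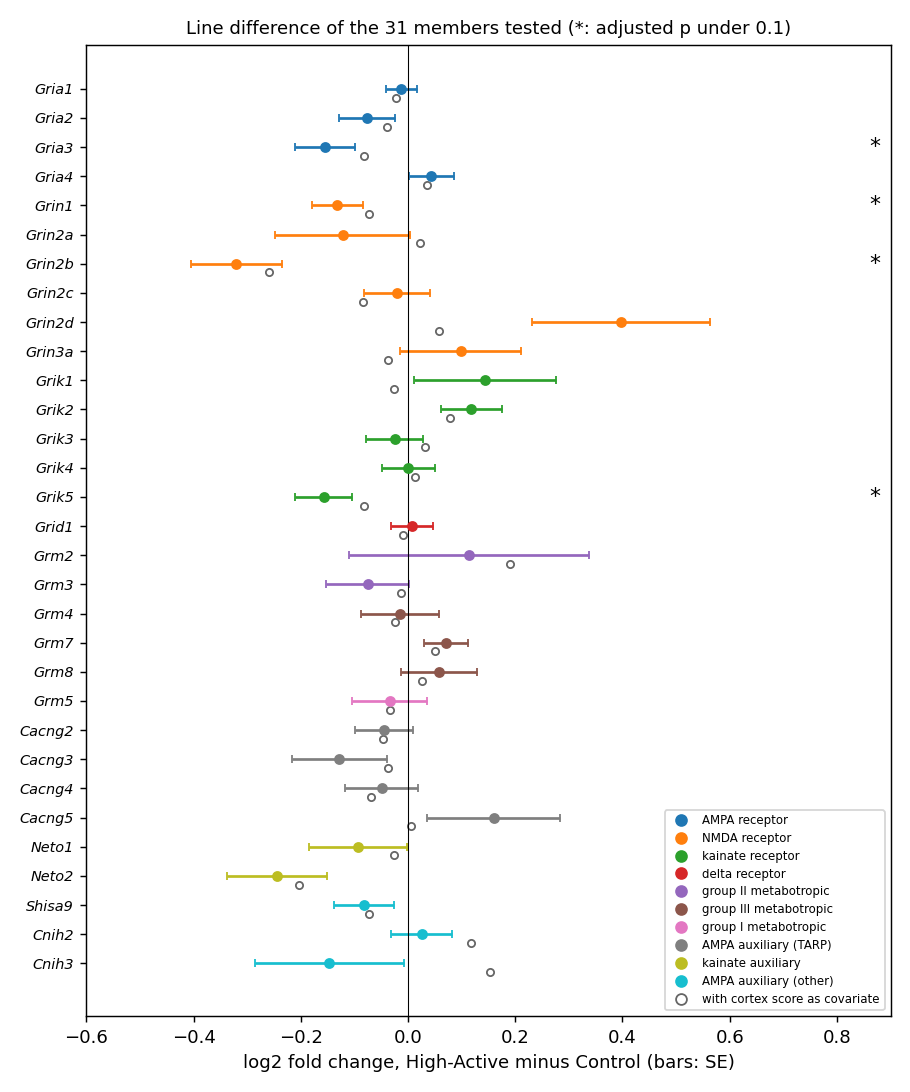
Log2 difference between High-Active and Control mice for the 31 tested members, ordered by receptor class, with its SE from edgeR (filled points and bars), and the same difference with the cortex marker score as a covariate (open points). Asterisks mark Grin2b, Grik5, Gria3 and Grin1, whose open points lie nearer to 0.

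Within one treatment no member was called. Between the saline groups 2 of 31 members (6.45%) had an unadjusted p under 0.05, against 17.4% of all genes, with 3.74% of all genes called. Between the amphetamine groups 5 members (16.1%) had an unadjusted p under 0.05, all lower in High-Active mice, against 12.6% of all genes and 5.93% lower, with 1.3% of all genes called. There DESeq2 called 1 member (Grin2b; 3.12% of all genes) and edgeR's likelihood-ratio test with robust dispersions called 2 (Grin2b and Neto2; 3.42% of all genes).

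The amphetamine comparison asked which genes changed 2 hours after the drug, averaged over both lines. No member and no gene (0%) reached an adjusted p under 0.1 in the quasi-likelihood test. At an unadjusted p under 0.05, 6 of 31 members (19.4%) were higher after amphetamine and 0 lower, where 12.5% of all genes differed, 7.06% higher and 5.4% lower. The likelihood-ratio test called 3 members (Cnih3, Grin2a and Grik3; 3.1% of all genes) and DESeq2 called 2 (Cnih3 and Grin2a; 2.64% of all genes).

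Cnih3, a cornichon enriched in forebrain excitatory neurons, had the smallest p. Its level was 25.81, 16.01, 16.05, 14.26 and 20.19 CPM in Control saline mice and 26.76, 28.33, 25.49, 19.6 and 18.15 CPM in Control amphetamine mice. High-Active mice had 17.69, 12.29, 12.35, 14.4 and 18.23 CPM after saline and 28.99, 16.3, 19.6, 32.92 and 20.84 CPM after amphetamine. Saline and amphetamine mice overlapped in each line. The difference was 0.51 on the log2 scale (SE 0.14, adjusted p = 0.1983), with 0.36 (SE 0.20) in Control and 0.66 (SE 0.20) in High-Active mice. Cnih3 increased by 0.49 (SE 0.073) per unit of the cortex marker score, whose mean rose from 0.062 to 0.58 in Control and from -0.85 to 0.21 in High-Active mice between saline and amphetamine, and with this score as a covariate the difference was 0.12 (SE 0.096, adjusted p = 0.9479).

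Grin2a was at 20.59, 17.29, 13.99, 16.72 and 16.97 CPM in Control saline mice, 24.33, 30.37, 19.5, 27.21 and 16.64 CPM in Control amphetamine mice, 13.82, 18.85, 20.43, 14.28 and 15.48 CPM in High-Active saline mice and 24.75, 13.02, 17.79, 23.41 and 23.66 CPM in High-Active amphetamine mice. The groups overlapped in each line. The amphetamine difference was 0.39 (SE 0.13, adjusted p = 0.228), and 0.18 with the cortex score as a covariate. Grik3, a kainate subunit of low glutamate affinity, was at 139.4, 125.7, 131.4, 117.7 and 129.4 CPM in Control saline mice and at 145.3, 161.8, 156.7, 150.4 and 160.5 CPM in Control amphetamine mice. In High-Active mice it was at 117.6, 145.5, 136.6, 142.6 and 138.2 CPM after saline and 140, 117.7, 139.6, 141.7 and 168.9 CPM after amphetamine. The amphetamine difference was 0.16 (SE 0.053, adjusted p = 0.228), and 0.091 with the cortex score as a covariate. It was 0.27 in Control (adjusted p = 0.6768 in edgeR) and 0.058 in High-Active mice.

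The amphetamine results rested in part on single mice. Without Control saline replicate 1, Cnih3 was called, against 0.867% of all genes, and without High-Active amphetamine replicate 2, Cnih3, Grik3 and Grin2a were called, against 2.3% of all genes. Summed cortical marker CPM was 828.8 in the former mouse, the highest of the Control saline group, and 217.1 in the latter, the lowest of its group. Without the 4 High-Active mice with high thalamus markers, 5 members were called against 3.15% of all genes: Cnih3 (0.65, SE 0.15, adjusted p = 0.05578), the kainate subunit Grik4 (0.20, SE 0.047, adjusted p = 0.05691), Grik3 (0.18, SE 0.047, adjusted p = 0.06873) and Grin2a (0.43, SE 0.12, adjusted p = 0.08608) were higher, and the TARP Cacng4 (-0.22, SE 0.052, adjusted p = 0.06023) was lower. This subset, chosen after the data were seen, left 3 High-Active mice in each treatment. The remaining High-Active mice did not overlap in summed cortical marker CPM, with 176.2, 162.7 and 341.6 after saline (replicates 2, 3 and 5) and 792.1, 967.6 and 547.5 after amphetamine (replicates 1, 4 and 5), and the part of this difference in the calls was not tested.

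Within Control mice 4 members (12.9%) and within High-Active mice 6 members (19.4%; 4 higher, 2 lower) had an unadjusted p under 0.05 for amphetamine, and none was called in the quasi-likelihood test. The 4 in Control mice were all higher, against 6.35% of all genes in either direction and 3.08% higher. For High-Active mice the shares of all genes were 8.43% in either direction, 4.94% higher and 3.49% lower. In Control mice the likelihood-ratio test called Grik3 (0.304% of all genes) and DESeq2 called 0 members (0.0406%). In High-Active mice DESeq2 called Gria1 and Cnih3 (0.886% of all genes), and the likelihood-ratio test called Cnih3 and Grm2 (1.89%). Without the 4 mice with high thalamus markers the quasi-likelihood test called 4 members in High-Active mice, against 2.41% of all genes. Cnih3 (0.95, SE 0.24, adjusted p = 0.07877) and Grik4 (0.30, SE 0.074, adjusted p = 0.07673) were higher after amphetamine, and Cacng4 (-0.37, SE 0.083, adjusted p = 0.06493) and Gria1 (-0.18, SE 0.047, adjusted p = 0.08332) were lower. These calls rest on the same 3 mice against 3, whose cortical marker sums were 162.7 to 341.6 CPM after saline and 547.5 to 967.6 CPM after amphetamine. A fit chosen after the data were seen compared amphetamine with saline among mice of the same parents, which 6 families allowed (2 Control and 4 High-Active, 13 mice). It called no member for amphetamine (0.00676% of all genes), in Control mice (0.00676%), in High-Active mice (0%) or for the interaction (0.00676%), and the amphetamine difference of Cnih3 was 0.50 (SE 0.21, adjusted p = 0.9763 in edgeR).

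**Figure D5:**
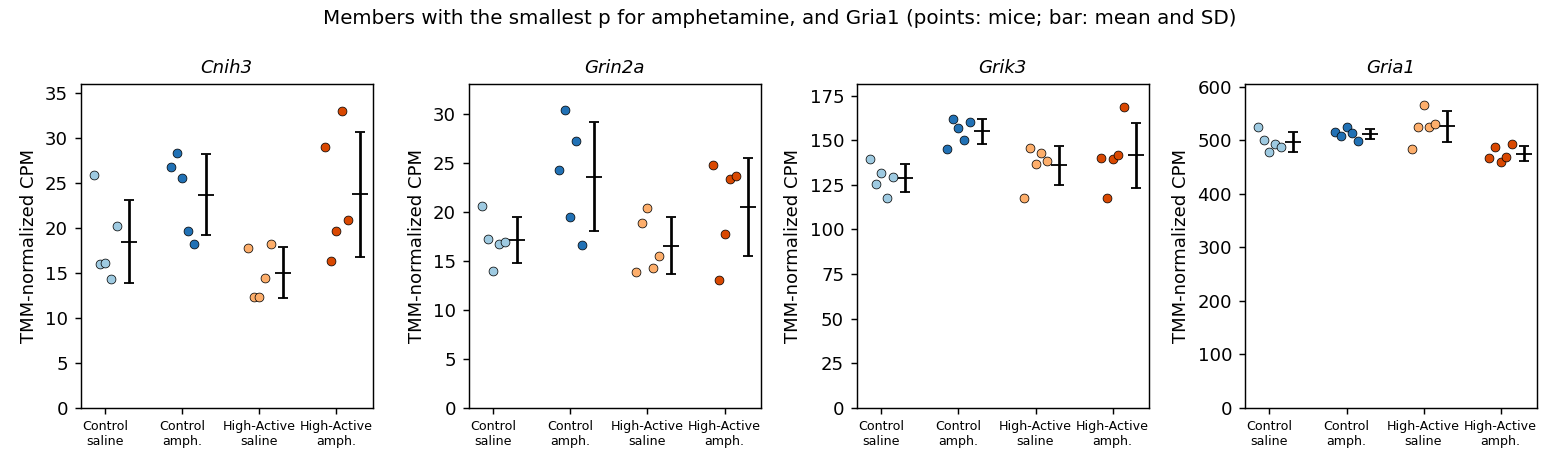
TMM-normalized CPM of Cnih3, Grin2a, Grik3 and Gria1 in each mouse (points) of the 4 groups, with mean and SD at the right of each group and the axis starting at 0. Grik3 in Control mice was at 117.7 to 139.4 CPM after saline and 145.3 to 161.8 CPM after amphetamine. For Gria1, 4 of the 5 High-Active saline mice were above every High-Active amphetamine mouse. No member was called for amphetamine in either line in the quasi-likelihood test of all 20 mice.

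The interaction compared the amphetamine response of High-Active with that of Control mice. No member and no gene (0%) was called in the quasi-likelihood test, and no member was called by DESeq2 or the likelihood-ratio test. At an unadjusted p under 0.05, 2 of 31 members (6.45%) differed, both with a negative difference, against 2.97% of all genes and 1.45% with a negative difference. Gria1 had the smallest p, with a difference of -0.19 between the responses (SE 0.057, adjusted p = 1). Gria1 was at 524.7, 500.9, 477, 492.3 and 487.1 CPM in Control saline mice and 515.8, 507.2, 524.5, 513.1 and 498.3 CPM in Control amphetamine mice. In High-Active mice it was at 483.6, 525.1, 566, 525.4 and 530.2 CPM after saline and 467.4, 486.5, 459.3, 468.5 and 491.9 CPM after amphetamine. The 4 higher High-Active saline mice were above every High-Active amphetamine mouse, and replicate 1 was within their range. The response was -0.15 (SE 0.04) in High-Active and 0.044 (SE 0.04) in Control mice. All 9 markers of striatal medium spiny neurons also had a negative interaction, 0 of them at an unadjusted p under 0.05. Their median was -0.20, against 0.0012 over all genes. The median response of these markers was -0.15 in High-Active mice (9 of 9 negative) and 0.067 in Control mice (8 of 9 positive). The part of this shift in the Gria1 difference was not tested.

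Grm3, a group II receptor found on glia and neurons, had an interaction of -0.34 (SE 0.16, adjusted p = 1), with a response of 0.25 (SE 0.11) in Control and -0.087 (SE 0.11) in High-Active mice. Its level was 48.3 to 58.52 CPM in Control saline and 60.69 to 66.01 CPM in Control amphetamine mice (adjusted p = 0.7827 in edgeR). High-Active mice had 46.89 to 73.23 CPM after saline and 46.38 to 63.04 CPM after amphetamine. The TARP Cacng5 came next at -0.50 (SE 0.25, adjusted p = 1). The direction of these 3 differences was the same in every fit tried, with 1 mouse left out or with another setting. These fits reuse most or all of the mice by which the 3 were chosen, so this is no independent check.

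A list of 46 related genes, all tested, covered release, uptake and metabolism of glutamate, further auxiliary and assembly proteins, anchoring proteins and extracellular ligands of the receptors. For line, 13 of the 46 (28.3%) were called against 14.5% of all genes, 3 higher and 10 lower in High-Active mice, and the median log2 difference over the list was -0.058. With the cortex marker score as a covariate 0 of the 46 were called (3.08% of all genes), with the thalamus marker score 1 (Cbln1, lower in that fit, an extracellular ligand of delta receptors, with 4.41% of all genes) and without the 4 mice with high thalamus markers 0 (3.93% of all genes). Without adjustment, mean Cbln1 was higher in High-Active mice, at 12.6 CPM against 8.84 CPM in Control mice. The vesicular glutamate transporters of cortical and thalamic neurons were chosen after their values were seen and are also in the marker lists of those tissues. Slc17a7, of cortical neurons, was at 412 ± 143.6 CPM in Control and 260.8 ± 207.6 CPM in High-Active mice (-0.85, SE 0.29, adjusted p = 0.07311), and Slc17a6, of thalamic neurons, at 26.16 ± 12.14 and 48.42 ± 32.01 CPM (0.89, SE 0.39, adjusted p = 0.1525; SD, n = 10 per line). Of 13 genes of release, uptake and metabolism, 3 were higher and 3 lower. Glul, the astrocytic glutamine synthetase, was higher (0.23, SE 0.056, adjusted p = 0.02134), as was the neutral amino acid transporter Slc1a4 (0.14, SE 0.043, adjusted p = 0.05167), and the neuronal glutamate transporter Slc1a1 was lower (-0.18, SE 0.05, adjusted p = 0.04027). Of 12 further auxiliary and assembly proteins 4 were lower: the AMPA receptor auxiliary Gsg1l (-0.27, SE 0.075, adjusted p = 0.03391), Frrs1l, which takes part in AMPA receptor assembly (-0.26, SE 0.071, adjusted p = 0.03455), the adhesion molecule Nptn (-0.16, SE 0.047, adjusted p = 0.04738) and the presynaptic protein Prrt2 (-0.22, SE 0.069, adjusted p = 0.05626). Of 13 anchoring proteins 1 was lower, and of 8 extracellular ligands 2 were lower, among them the pentraxin receptor Nptxr (-0.46, SE 0.15, adjusted p = 0.06648). For amphetamine and for the interaction none of the 46 and no gene (0%) was called in the quasi-likelihood test. At an unadjusted p under 0.05, 10 (21.7%) differed for amphetamine, all higher, against 12.5% of all genes and 7.06% higher. For the interaction 1 (2.17%) differed at that p, against 2.97% of all genes.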

How the data were processed

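Striatal RNA of 20 mice was sequenced. The authors aligned paired reads with TopHat2 2.0.10 to GRCm38, counted them per Ensembl gene with HTSeq 0.6.1 and deposited 1 table of raw counts per mouse. Rows naming no gene (15.97% to 17.49% of reads) were left out. Genes over 1 CPM in at least 3 mice were normalized by TMM and tested in edgeR 4.0.16 (R 4.3.3; quasi-likelihood test, 4 group means), with Benjamini-Hochberg adjustment over 14792 genes and a threshold of 0.1; standard errors are the log2 difference over the root of F. RPKM used exonic lengths of GENCODE vM21 (GRCm38), which is not the annotation of the counting. Of the 10 marker lists, 3 gave tissue scores, the mean log2 CPM of the markers centred over all mice. Alternatives used RLE, other filters, DESeq2 1.42.0, a likelihood-ratio test, limma 3.58.1 voom with parents as a block, parents as a fixed block in edgeR, covariates and left-out mice. The procedure was checked on simulated data. Members and lists were chosen with earlier results of these data known. Named genes were members called for line, the 3 with the smallest p for amphetamine and for interaction, the leading member of each class, members too low to test, and at most 8 called related genes.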

Additional observations from a re-analysis of the deposited data

Results flagged for a closer look

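In groups of 5 mice, the mouse farthest from its neighbour was compared with the range of its group (Dixon's test, critical value 0.71) for the 31 tested members in the 4 groups. Of 124 such comparisons 7 exceeded the critical value, where chance alone gives about 1 in 20. Control amphetamine replicate 5 was low for Gria4 (84.34 CPM, others 101.9 to 105.3 CPM) and for Grin2b (293.7 CPM, others 379.3 to 417.8 CPM). In the same group Grm2 was high in replicate 2 (12.67 CPM, others 5.852 to 6.903 CPM), Shisa9 was high in replicate 3 (129 CPM, others 112.3 to 116.8 CPM) and Cacng4 was low in replicate 4 (103.3 CPM, others 120.1 to 124.8 CPM). In Control saline mice Grin2c was high in replicate 4 (64.47 CPM, others 51.74 to 55.14 CPM) and Grin3a was low in replicate 5 (34.38 CPM, others 49.92 to 56.17 CPM). No High-Active group had such a mouse. The comparison finds 1 distant mouse and can miss 2 that lie close together. High thalamus markers occurred in High-Active saline replicates 1 and 4 and in High-Active amphetamine replicates 2 and 3.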

How the results depend on the processing

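For the count of members called between the lines (4), RLE size factors, the filter at 5 mice, the likelihood-ratio test and voom with parents as a block (family correlation 0.026) also gave 4, and DESeq2 gave 6. It was 1 without a filter on low counts and 1 at a threshold of 0.05 (Grin2b in each), and 0 with cortex, cortex and oligodendrocyte, or thalamus scores as covariates, with counts summed over parents, and without the 4 mice with high thalamus markers. Leaving out 1 mouse gave 1 to 6 for line and 0 to 3 for amphetamine. Between the amphetamine groups DESeq2 gave 1 and the likelihood-ratio test 2. For amphetamine DESeq2 gave 2, the likelihood-ratio test 3 and the fit without the 4 mice 5. In Control mice the likelihood-ratio test gave 1. In High-Active mice DESeq2 and the likelihood-ratio test gave 2 each and the fit without the 4 mice 4. The cause of these changes was not tested. Subunit shares without length correction were 50.61% for Gria2, 76.49% for Grin2b and 44.81% for Grik5. For the 10 members whose differences were recomputed under each setting, none changed sign. The settings reuse the mice by which these members were chosen, so this is no independent check. The labels give no replicate numbers shared between groups, and pairing went by parents instead: as a fixed block in edgeR's quasi-likelihood test, with 5 residual degrees of freedom, they left 0 members called for amphetamine, in each line and for the interaction, as without the block (Cnih3 0.50, Grin2a 0.30 and Grik3 0.16 for amphetamine), and the line difference could not be estimated. Each library was 1 mouse, and mice of the same parents are not fully independent.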
